A study of Mus musculus with 25 samples.

Results

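The genes described here are 10 T cell genes of mouse lung: the T cell receptor subunits Cd3e and Cd3g, the signalling kinases Zap70 and Lck, the coreceptors Cd4, Cd8a and Cd8b1, the adhesion receptor Cd2, the costimulator Icos and the inhibitory receptor Ctla4. They were chosen by symbol, and every probe set annotated to 1 of these symbols alone was taken. Of the 10 genes, 9 had such a probe set, 18 probe sets in all, among 18193 genes on the array with a probe set of 1 symbol. No probe set carried the symbol Lck alone in the annotation used here, so Lck was not analysed here. Each gene was represented by its brightest probe set on average, and was tested if that probe set exceeded the median of the array on 4 or more arrays. By that filter 8 of the genes were tested, among 12062 genes in all, and Cd4 was not. Ctla4 passed with the smallest number allowed, 4 of 25 arrays, of which 2 were FP-KO Day 7, 1 WT Day 14 and 1 FP-KO Day 14, with none from Day 0, so it entered the test only through arrays of the later days.

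Whole lung RNA of 25 female mice was hybridised to Affymetrix mouse arrays, 1 array per mouse as titled. The mice were WT or FP-KO, which by the title of the series lack the prostaglandin F receptor FP (gene Ptgfr), and all received bleomycin, a DNA-damaging drug used to model lung fibrosis, at 1 mg/kg in saline into the trachea. The 6 groups are WT on Day 0 (4 mice), Day 7 (4 mice) and Day 14 (5 mice), and FP-KO with 4 mice on each of these days. Day 0 is labelled as baseline, and there was no group given saline alone among the groups used. The sources used here do not give strain, age or the design of the knockout allele. The labels number the mice but do not say whether they came from separate litters or days, so p-values measure the spread between these arrays.

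T cells recognise antigen through a receptor that signals by way of the CD3 chains, whose phosphorylated tails recruit the kinase Zap70 after Lck has acted on them. CD4 marks helper and regulatory T cells and binds MHC class II, whereas the CD8 chains mark cytotoxic T cells and bind MHC class I. ICOS is induced on activated T cells and binds ICOS ligand on antigen-presenting cells, and CTLA-4 competes with CD28 for CD80 and CD86 and is abundant on regulatory T cells.

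Ptgfr separated the genotypes without overlap, with intensities from 122.6 upward in WT arrays and up to 57.6 in FP-KO arrays. The first principal component held 42.0% of the variance over all genes and the second 16.9%, and on the second the Day 14 arrays fell into 2 sets that crossed the genotypes: WT No. 1 to 3 with FP-KO No. 1 and 2, and WT No. 4 and 5 with FP-KO No. 3 and 4. The array FP-KO Day 14 No. 2 lay with the Day 0 arrays on the first component. The ratio of the 3′ to the 5′ control probe set of Actb, a sign of RNA integrity, ran from 1.34 to 1.62 in WT Day 0, from 1.23 to 1.32 in WT Day 7 and from 1.21 to 1.40 in WT Day 14. In FP-KO it ran from 1.31 to 1.55 on Day 0, from 1.18 to 1.35 on Day 7 and from 1.38 to 1.56 on Day 14. The ranges of Day 0 and Day 7 did not overlap in WT and overlapped in FP-KO, and those of Day 7 and Day 14 did not overlap in FP-KO, the ratio being higher on Day 14. Its part in the changes between days was not tested.

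The stretches before the annotated starts of 4 of these genes are shown: Cd3e and Cd3g, which lie near each other on chromosome 9, Cd8a, which fell in WT by Day 14, and Ctla4, an inhibitory receptor. RefSeq promoter sequences (GRCm38.p6) matched 6 of the 10 genes. Each line holds the 250 bases before the start, 5′ to 3′ on the gene's strand: Cd3e at chr9:45009612-45009861 (minus strand), Cd3g at chr9:44980432-44980681 (minus strand), Cd8a at chr6:71373177-71373426 (plus strand) and Ctla4 at chr1:60908775-60909024 (plus strand). Capitals mark matches, on either strand, to 6 motifs of lymphoid factors.
Cd3e: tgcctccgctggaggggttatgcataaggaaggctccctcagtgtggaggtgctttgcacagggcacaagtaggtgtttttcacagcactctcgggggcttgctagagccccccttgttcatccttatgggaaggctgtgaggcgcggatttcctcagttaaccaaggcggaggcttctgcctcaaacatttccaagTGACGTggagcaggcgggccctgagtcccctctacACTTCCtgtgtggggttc
Cd3g: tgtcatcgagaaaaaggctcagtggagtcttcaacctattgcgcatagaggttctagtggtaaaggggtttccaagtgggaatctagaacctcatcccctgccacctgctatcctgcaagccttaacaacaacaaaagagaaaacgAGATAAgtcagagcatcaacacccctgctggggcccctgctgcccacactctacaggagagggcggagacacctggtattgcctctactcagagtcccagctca
Cd8a: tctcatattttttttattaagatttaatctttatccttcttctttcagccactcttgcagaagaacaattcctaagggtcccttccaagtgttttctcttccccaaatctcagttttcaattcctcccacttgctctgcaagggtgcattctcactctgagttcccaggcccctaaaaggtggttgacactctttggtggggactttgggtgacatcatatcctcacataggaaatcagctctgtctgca
Ctla4: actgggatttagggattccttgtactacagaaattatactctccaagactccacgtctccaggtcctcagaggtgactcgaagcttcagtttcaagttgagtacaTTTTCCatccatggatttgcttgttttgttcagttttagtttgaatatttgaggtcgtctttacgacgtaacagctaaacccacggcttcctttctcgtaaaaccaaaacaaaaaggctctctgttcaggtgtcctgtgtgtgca

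The motifs searched, on both strands, were those of ETS factors, RUNX factors, GATA factors, TCF/LEF factors, NFAT and the cyclic AMP response element. Cd3e held TGACGT, a part of the cyclic AMP response element, from 53 to 48 bases before its start, a motif found in 6.47% of 32851 promoters of this length. It also held ACTTCC, the reverse complement of the ETS motif, from 18 to 13 bases before its start, found in 19.7% of promoters. Cd3g held AGATAA, the GATA motif, from 104 to 99 bases before its start, found in 9.99%. Ctla4 held TTTTCC, the reverse complement of the NFAT motif, from 145 to 140 bases before its start, found in 20.4%. The RUNX motif was searched as TGTGGT and is held by 14.0% of promoters. The TCF/LEF motif was searched as CTTTGA and is held by 13.8%. These latter motifs matched in none of the 4 windows, and no motif matched in that of Cd8a. A match is one of letters and not a shown binding site.

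**Figure D1:**
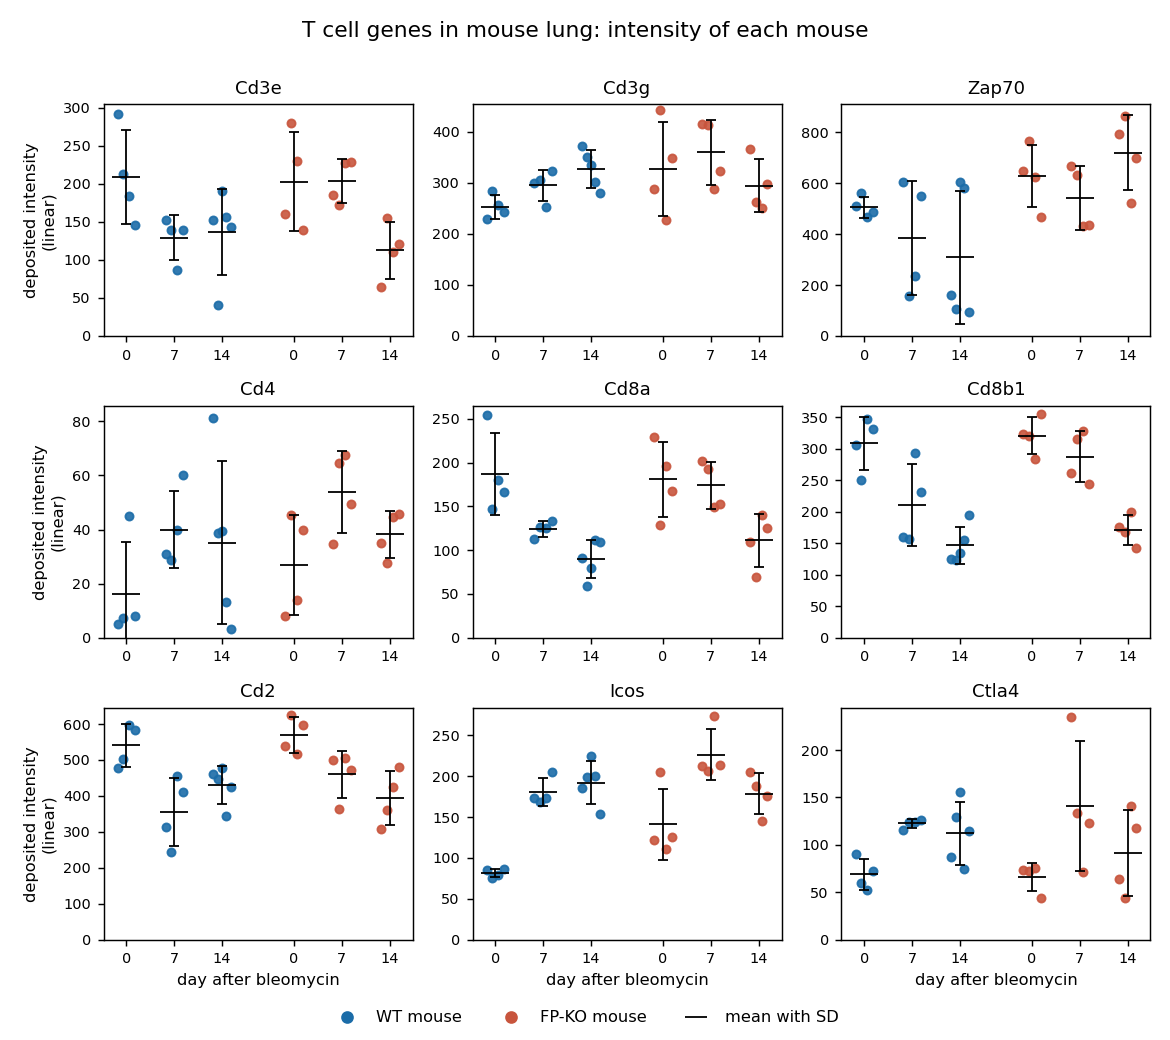
Deposited linear intensity of each mouse (points) for the 9 T cell genes with a probe set, by day after bleomycin, with WT on the left and FP-KO on the right of each panel, and the group mean with SD as bars. Cd8b1 is lower in every Day 14 mouse than in every Day 0 mouse of its genotype, Icos is higher in every WT Day 7 and Day 14 mouse than in WT Day 0, and the Cd4 probe set drawn (1427779_a_at) stays under 82 in all arrays.

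After bleomycin the T cell genes did not move as a block. The CD8 chains and Cd2 fell, Icos rose, and Cd3e and Cd3g did not pass the test against Day 0 in either genotype. Ctla4 was called higher in FP-KO on Day 7, but it entered the test only through arrays of the later days and the call was lost without the filter (adjusted p = 0.0559). In WT on Day 7, 1 of 8 tested genes rose (Icos) and 2 fell (Cd8b1, Cd2), against 35.1% of all 12062 genes called in that comparison (17.1% higher and 18% lower). In WT on Day 14, 1 rose (Icos) and 4 fell (Cd8b1, Cd8a, Cd2, Zap70), against 38.7% of all genes (19.1% higher and 19.5% lower). The median log2 difference of the 8 genes was -0.56 on Day 7 and -0.53 on Day 14, beside -0.01 for all genes on each day. In FP-KO, 2 of 8 were called higher on Day 7 (Icos, and Ctla4 with the limit just given), beside 23.3% of all genes called and 12.6% higher, and 2 fell on Day 14 (Cd8b1, Cd2), against 3.26% called and 1.41% lower. Those FP-KO medians were 0.10 and -0.36. From Day 7 to Day 14 no gene passed in WT, where 5.94% of all genes did and 1 of the 8 had an unadjusted p under 0.05 by limma, beside 3160 of all 12062 genes. In FP-KO over the same interval 4 of 8 fell (Cd8b1, Cd8a, Cd3e, Icos), against 22.7% of all genes called and 12% lower. Genes of other lists fell in that comparison too: 7 of 10 genes of all leukocytes (median log2 difference -0.53), 7 of 15 ligands of T cell receptors (-0.12) and 3 of 10 NK cell markers (-0.47). So did 7 of 15 receptor and signalling genes (-0.44), 5 of 9 other costimulators and inhibitory receptors (-0.57) and 7 of 15 homing and survival genes (-0.48). Of 12 T cell transcription factors 3 fell and 3 rose, and of 8 B cell markers 0 were called. The part of these lists in the falls of the T cell genes was not tested. On Day 7 the share of these genes called was close to that of all genes in both genotypes. It was above it in WT on Day 14, in FP-KO on Day 14 and in FP-KO from Day 7 to Day 14. With 8 genes these shares rest on few calls, and several were lost with 1 array left out, as given below. In FP-KO on Day 14 the call of Cd2 held in 3 of 8 such runs. The genes were chosen with earlier results of these data known. Comparisons within a genotype share the Day 0 mice. The lung was measured whole, so fewer cells of a type and less RNA per cell cannot be told apart.

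**Figure D2:**
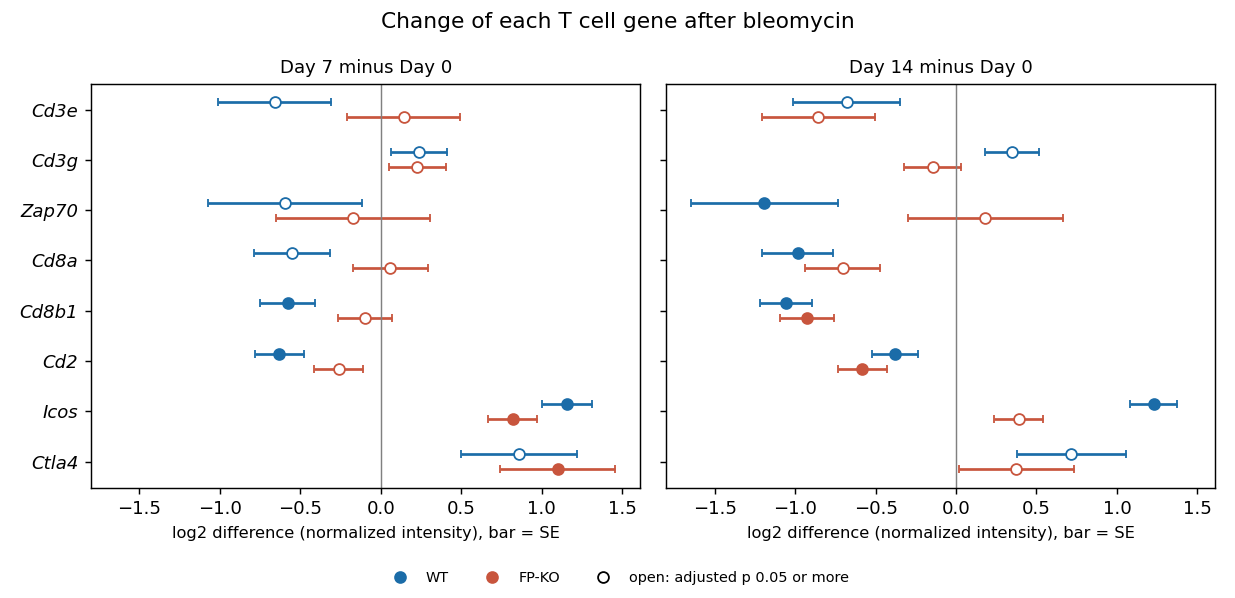
Difference, on the log2 scale, of normalised intensity from Day 0 (x axis) for the 8 tested T cell genes, with Day 7 on the left and Day 14 on the right, WT and FP-KO in colours and the standard error as bars. Filled points passed an adjusted p under 0.05 over all genes by limma; Icos lies to the right of 0 and Cd8b1 and Cd2 to the left in both genotypes on Day 14.

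The receptor chain Cd3e had intensities of 291.6, 213.1, 183.7 and 146.0 in the WT Day 0 mice, 152.6, 139.2, 86.0 and 138.7 on Day 7, and 151.8, 40.3, 191.0, 156.6 and 143.1 on Day 14. In FP-KO it measured 160.5, 280.4, 230.5 and 138.6 on Day 0, 185.6, 172.4, 227.4 and 228.9 on Day 7, and 63.9, 154.6, 109.7 and 121.1 on Day 14. Within each genotype the Day 0 values overlapped with those of both later days, and the Day 0 values themselves spread widely. The log2 difference from Day 0 in WT was -0.66 ± 0.35 (SE) on Day 7 and -0.68 ± 0.33 on Day 14, with adjusted p = 0.15 and 0.109 by limma. In FP-KO it was 0.14 ± 0.35 on Day 7 (adjusted p = 0.807) and -0.85 ± 0.35 on Day 14 (adjusted p = 0.178). Between Day 7 and Day 14 in FP-KO, 19.6% of all genes lacked overlap. Cd3e fell without overlap there, by a log2 difference of -0.997 ± 0.35 (adjusted p = 0.0437). This call was lost when any of 7 of the 8 arrays was left out, all but FP-KO Day 14 No. 4, with adjusted p from 0.0579 to 0.145, and with the replicate block (adjusted p = 0.0628), without quantile normalisation (0.066) or with a common array median (0.0586).

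Cd3g, the gamma chain of the same complex, had intensities of 229.1, 284.2, 257.0 and 242.3 in WT on Day 0, 298.7, 306.4, 252.9 and 322.3 on Day 7, and 371.3, 351.5, 334.5, 301.8 and 279.6 on Day 14. In FP-KO the values ran from 227.9 to 442.8 on Day 0, from 288.7 to 414.4 on Day 7 and from 251.6 to 365.7 on Day 14. The WT Day 14 mice lay at the upper end of the WT range, with 1 of 5 below the highest Day 0 mouse. Their log2 difference from Day 0 was 0.35 ± 0.17, adjusted p = 0.102, opposite in sign to that of Cd3e. It passed in 1 of 9 runs with 1 array left out, that without WT Day 0 No. 2 (0.45, adjusted p = 0.0496). Of 12 alternative settings it passed in 2: the mouse number as a replicate block (0.39, adjusted p = 0.037) and array weights (0.45, adjusted p = 0.019). With WT No. 4 and 5 alone on Day 14 it was 0.22 (adjusted p = 0.522). Cd3d, the delta chain encoded between these neighbours, fell in WT by Day 14 (log2 -0.46 ± 0.15, adjusted p = 0.0169) and in FP-KO by Day 14 (-0.69 ± 0.15, adjusted p = 0.0164). The epsilon and gamma chains thus had opposite signs in WT with no call, and the chain encoded between them fell.

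Zap70, the kinase that binds the phosphorylated CD3 tails, was represented by probe set 1439749_at. Its intensities were 509.2, 561.1, 465.3 and 486.0 in WT on Day 0, 604.0, 156.6, 234.4 and 548.7 on Day 7, and 159.2, 107.1, 603.4, 580.7 and 93.0 on Day 14. In FP-KO they were 649.6, 765.4, 625.4 and 469.0 on Day 0, 669.1, 632.5, 430.9 and 437.5 on Day 7, and 794.4, 865.1, 523.6 and 698.2 on Day 14. Low values under 300 occurred in 2 of 4 WT Day 7 mice and 3 of 5 WT Day 14 mice, whereas the other WT mice of those days lay near the Day 0 level and no FP-KO mouse was under 430.9. The fall in WT by Day 14 had a log2 difference of -1.19 ± 0.46 (adjusted p = 0.0421), with overlapping groups, and the call was lost when any of 7 of the 9 arrays was left out (WT Day 0 No. 1 to 4 and WT Day 14 No. 1, 2 and 5; adjusted p from 0.0581 to 0.121). It was also lost with the replicate block (-0.86, adjusted p = 0.137) and over the mean of the 3 probe sets (-0.27, adjusted p = 0.388).

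On Day 14 the other Zap70 probe sets did not follow the first. Probe set 1422701_at ran from 120.2 to 182.0 in WT on Day 0 and from 143.1 to 237.9 on Day 14, a log2 difference of 0.30 ± 0.21 (adjusted p = 0.262 in the fit on all probe sets, where 36.4% of probe sets passed). Probe set 1440178_x_at did not pass the filter and ran from 82.5 to 117.9 in WT on Day 0 and from 88.4 to 128.8 on Day 14. The 3 low WT Day 14 mice (No. 1, 2 and 5) were thus within or above the Day 0 range in both other probe sets. On Day 7, WT No. 2 was the lowest of its group in all 3 probe sets, at 93.0 in 1422701_at and 61.6 in 1440178_x_at, whereas the other low mouse, No. 3, lay at 178.1 and 96.8.

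**Figure D3:**
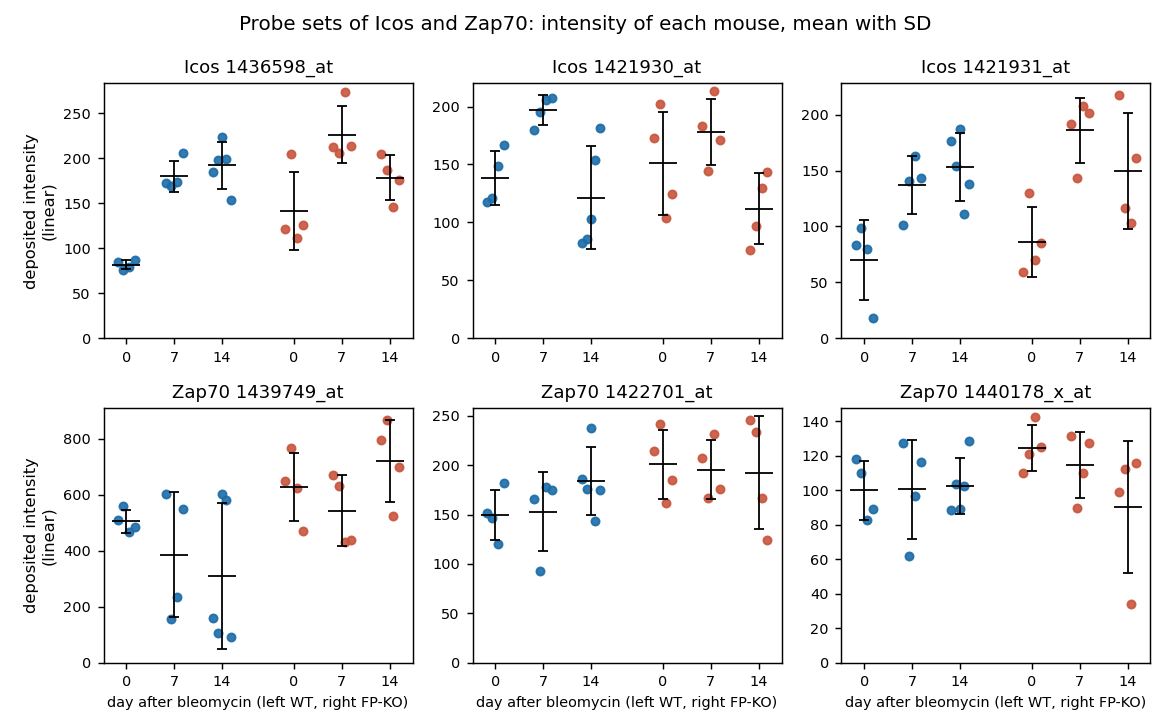
Deposited linear intensity of each mouse for the 3 probe sets of Icos (top) and of Zap70 (bottom), by day after bleomycin, with WT on the left and FP-KO on the right of each panel and the mean with SD. The low WT Day 14 mice appear in Zap70 1439749_at alone, WT Day 7 holds a low mouse in all 3 Zap70 probe sets, and Icos 1421930_at is lower on Day 14 than on Day 7 where the other Icos probe sets of WT stay up.

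The CD8 chains gave the clearest falls. Cd8b1, the beta chain of the cytotoxic coreceptor, had intensities of 305.6, 250.5, 346.8 and 332.3 in WT on Day 0, 160.7, 157.6, 294.0 and 231.3 on Day 7, and 125.5, 123.9, 134.0, 155.3 and 195.1 on Day 14. In FP-KO they were 323.4, 320.6, 284.5 and 355.8 on Day 0, 262.2, 316.0, 328.3 and 244.4 on Day 7, and 176.2, 168.6, 199.9 and 142.0 on Day 14. Every Day 14 mouse of either genotype lay below every Day 0 mouse, and the FP-KO Day 7 mice still overlapped with Day 0. Of all genes 28.5% lacked overlap between Day 0 and Day 14 in WT, and 9.87% in FP-KO. The fall in WT was -0.58 ± 0.17 (log2) on Day 7 (adjusted p = 0.0103) and -1.06 ± 0.16 on Day 14 (adjusted p = 2.53e-05). In FP-KO it was -0.10 ± 0.17 on Day 7, which did not pass (adjusted p = 0.718), and -0.93 ± 0.17 on Day 14 (adjusted p = 0.00538). From Day 7 to Day 14 the fall in FP-KO was -0.83 ± 0.17 (adjusted p = 0.00253), and each of these 4 calls held with any 1 array left out.

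Cd8a, the alpha chain, lies next to Cd8b1 on chromosome 6. Probe set 1444078_at gave 254.5, 146.9, 180.3 and 165.9 in WT on Day 0, 112.3, 126.6, 125.2 and 133.5 on Day 7, and 90.7, 59.4, 79.8, 111.1 and 108.9 on Day 14. In FP-KO it gave 229.4, 129.0, 196.5 and 168.0 on Day 0, 202.0, 192.2, 149.8 and 152.8 on Day 7, and 109.1, 69.4, 140.4 and 125.6 on Day 14. In WT the 3 days did not overlap in this probe set, each lower than the one before. Of all genes 35% lacked overlap in WT between Day 0 and Day 7, and 28.5% between Day 0 and Day 14. Between Day 7 and Day 14 the share was 11.3%. The probe set exceeded the array median on 4 of 4 WT Day 0 arrays and on 0 WT arrays of either later day. The WT difference from Day 0 was -0.55 ± 0.23 on Day 7 (adjusted p = 0.0709) and -0.98 ± 0.22 on Day 14 (adjusted p = 0.00135). In FP-KO the difference on Day 14 was -0.70 ± 0.23 (adjusted p = 0.0989), and that from Day 7 to Day 14 was -0.76 ± 0.23 (adjusted p = 0.0235). The last call was lost without FP-KO Day 7 No. 1, FP-KO Day 7 No. 2 or FP-KO Day 14 No. 2, with log2 differences from -0.70 to -0.52 and adjusted p from 0.0718 to 0.13.

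Cd8a had 5 probe sets, of which 4 passed the filter. The 3 others that passed had log2 differences in WT by Day 14 of -0.66 ± 0.41 (1425335_at, adjusted p = 0.211), -0.32 ± 0.19 (1440164_x_at, adjusted p = 0.189) and -0.21 ± 0.16 (1451673_at, adjusted p = 0.299). All 4 thus had the same sign in WT by Day 14 and 1 of them passed. However, 1440164_x_at passed the filter on 5 arrays, 3 of them WT Day 0. It would not have entered the test without these, so its lower Day 14 value is no support for the others. The order of the 3 days was not shared either. In WT 1425335_at differed by 0.10 ± 0.43 from Day 0 to Day 7, and 1440164_x_at by 0.04 ± 0.19 from Day 7 to Day 14. In FP-KO from Day 7 to Day 14, 3 of the 4 passed: 1444078_at at -0.76, 1425335_at at -1.28 ± 0.43 (adjusted p = 0.0439) and 1451673_at at -0.52 ± 0.17 (adjusted p = 0.0341), in a fit in which 17.7% of all probe sets passed. Of these, 1425335_at passed the filter on the smallest number of arrays allowed, 3 of FP-KO Day 7 and 1 of WT Day 7. It thus entered the test only through Day 7 arrays, so its fall from Day 7 is no support for the others. Of its 4 FP-KO Day 14 values 1 was at the floor. The fifth, 1440811_x_at, stayed at or under 40.0 in all arrays.

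Cd4, the helper coreceptor, was near the lower limit of the measurement. Values were floored at an intensity of 24.3, and the brighter probe set (1427779_a_at) gave 5.0, 7.3, 44.9 and 7.9 in WT on Day 0, 31.0, 28.9, 39.7 and 60.0 on Day 7, and 81.4, 38.6, 39.5, 13.2 and 3.3 on Day 14. In FP-KO it gave 8.1, 45.5, 13.9 and 39.7 on Day 0, 34.7, 64.5, 67.6 and 49.4 on Day 7, and 35.0, 27.5, 44.8 and 45.7 on Day 14. All 4 mice of each Day 7 group and of FP-KO Day 14 lay above the floor, against 1 of 4 WT and 2 of 4 FP-KO mice on Day 0 and 3 of 5 WT mice on Day 14. In a fit without the filter no Cd4 difference passed, the one with the lowest p being FP-KO Day 7 against Day 0 (log2 0.80 ± 0.36, adjusted p = 0.148). The other probe set (1419696_at) ran from 11.5 to 146.2, with FP-KO Day 7 No. 1 the highest, and was at the floor in 3 of 4 WT and 2 of 4 FP-KO mice on Day 7 and in no Day 14 mouse, so the 2 probe sets differ in which days lie above it. Values at the floor have no order, so these log2 differences are not measures of size.

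Cd2, an adhesion and costimulatory receptor of lymphocytes, T cells and NK cells among them, had intensities of 477.4, 502.0, 598.5 and 583.9 in WT on Day 0, 312.1, 243.3, 454.2 and 410.2 on Day 7, and 461.1, 446.5, 477.0, 342.7 and 423.6 on Day 14. In FP-KO it gave 539.4, 625.6, 515.8 and 596.8 on Day 0, 499.3, 362.7, 505.9 and 471.2 on Day 7, and 306.5, 362.1, 423.4 and 481.1 on Day 14. In both genotypes every Day 14 mouse lay below every Day 0 mouse, in WT with 477.0 against 477.4 at the border, and in WT the Day 7 mice did too. A lack of overlap with Day 0 was found in 35% of all genes in WT on Day 7 and 28.5% on Day 14. In FP-KO on Day 14 the share was 9.87%. The WT difference from Day 0 was -0.63 ± 0.15 on Day 7 (log2, adjusted p = 0.0025), a call that held with any 1 array left out, and -0.38 ± 0.14 on Day 14 (adjusted p = 0.0412). In FP-KO it was -0.26 ± 0.15 on Day 7 (adjusted p = 0.218) and -0.58 ± 0.15 on Day 14 (adjusted p = 0.0359). The Day 14 calls were fragile: that of WT was lost without any of WT Day 0 No. 2, 3 or 4 or WT Day 14 No. 1, 2 or 4 (adjusted p from 0.0537 to 0.103), and that of FP-KO without any of FP-KO Day 0 No. 1, 2 or 4 or FP-KO Day 14 No. 1 or 2 (0.0628 to 0.157). Both were also lost without quantile normalisation (adjusted p = 0.101 and 0.0753) and with a common array median (0.109 and 0.0757).

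In WT by Day 14 Icos moved against the CD8 chains. Its probe set 1436598_at gave 85.0, 75.4, 79.2 and 86.4 in WT on Day 0, 173.0, 168.8, 173.2 and 205.6 on Day 7, and 185.3, 198.5, 224.1, 199.7 and 153.5 on Day 14. In FP-KO it gave 121.6, 205.4, 110.9 and 126.0 on Day 0, 213.0, 205.7, 273.5 and 213.3 on Day 7, and 204.5, 187.6, 145.3 and 176.2 on Day 14. The WT mice on Day 0 were tightly grouped and all later WT mice lay well above them, whereas FP-KO Day 0 lay higher, with No. 2 at a level the other FP-KO mice reached on Day 7. Of all genes 35% lacked overlap with WT Day 0 on Day 7, and 28.5% on Day 14. In WT the log2 difference was 1.16 ± 0.15 on Day 7 (adjusted p = 5.62e-06) and 1.23 ± 0.15 on Day 14 (adjusted p = 1.42e-06). In FP-KO it was 0.82 ± 0.15 on Day 7 (adjusted p = 0.000606) and 0.39 ± 0.15 on Day 14 (adjusted p = 0.162). The first 3 of these held with any 1 array left out, and without FP-KO Day 0 No. 2 the last became 0.58 (adjusted p = 0.0282). The probe set exceeded the array median on 0 of 4 WT and 1 of 4 FP-KO Day 0 arrays, and on all arrays of the later days. It thus entered the test mainly through the later days, but the first 3 calls held under every alternative setting, the fit without the filter among them. From Day 7 to Day 14 Icos fell in FP-KO by a log2 difference of -0.43 ± 0.15 (adjusted p = 0.0454), a call lost when any of 6 of the 8 arrays was left out: FP-KO Day 7 No. 1, 2 or 3 or FP-KO Day 14 No. 2, 3 or 4 (adjusted p from 0.0625 to 0.123). It was also lost without quantile normalisation (adjusted p = 0.102) and with a common array median (0.0724).

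The second Icos probe set (1421931_at) rose as well, in WT by 1.07 ± 0.33 on Day 7 (adjusted p = 0.0171, in a fit where 29.4% of probe sets passed) and 1.23 ± 0.31 on Day 14 (adjusted p = 0.0041). In FP-KO on Day 7 it rose by 1.29 ± 0.33 (adjusted p = 0.00929, beside 18.3% of probe sets). It exceeded the array median on no Day 0 array of either genotype, so it entered the test only through arrays of the later days. The third (1421930_at) differed from Day 0 in WT by 0.54 ± 0.23 on Day 7 (adjusted p = 0.0788) and by -0.18 ± 0.22 on Day 14 (adjusted p = 0.532). On Day 14 it followed the sets of mice seen on the second principal component, from 76.3 to 102.4 in the 5 mice of the first set and from 129.6 to 181.7 in the 4 mice of the other, across both genotypes. The rise of Icos in WT on Day 14 was therefore seen in 2 of its 3 probe sets, neither of which exceeded the array median on any WT Day 0 array. In FP-KO on Day 14 none of the 3 passed.

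Ctla4 had intensities of 90.7, 60.2, 52.7 and 72.3 in WT on Day 0, 115.8, 124.0, 124.4 and 126.7 on Day 7, and 86.7, 129.6, 156.2, 74.1 and 114.1 on Day 14. In FP-KO it gave 73.8, 72.1, 75.4 and 43.9 on Day 0, 234.9, 133.4, 70.9 and 123.5 on Day 7, and 63.6, 43.7, 141.5 and 117.4 on Day 14. The WT Day 7 mice lay close together above all Day 0 mice, and FP-KO Day 7 No. 1 stood highest of all arrays. A lack of overlap between WT Day 0 and WT Day 7 was found in 35% of all genes. The FP-KO difference on Day 7 passed (log2 1.10 ± 0.36, adjusted p = 0.0295), with overlapping groups. It was lost in a fit without the filter (adjusted p = 0.0559), and without FP-KO Day 7 No. 1 (0.81, adjusted p = 0.129), FP-KO Day 7 No. 2 or FP-KO Day 0 No. 4. The WT differences of 0.86 ± 0.36 on Day 7 and 0.72 ± 0.34 on Day 14 did not pass (adjusted p = 0.0661 and 0.0989). Cd28, the activating counterpart encoded beside Ctla4 and Icos on chromosome 1 and looked at for that reason after its values were known, did not pass against Day 0 in either genotype, with a log2 difference of -0.21 ± 0.13 in WT on Day 14 (adjusted p = 0.213).

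Whether 2 of these genes changed unequally within the same lungs was tested on the log2 difference between them in each mouse, by a two-sided exact permutation test over mice. Icos minus Cd3e was -1.30 ± 0.43 (SD, n = 4) in WT on Day 0, 0.52 ± 0.38 on Day 7 (n = 4) and 0.61 ± 0.85 on Day 14 (n = 5). In FP-KO it was -0.52 ± 0.41 on Day 0, 0.15 ± 0.18 on Day 7 and 0.72 ± 0.62 on Day 14 (n = 4 each). Each later group lay above its Day 0 group without overlap, at the smallest p these group sizes allow (exact permutation p = 0.0286 for 4 against 4 mice and 0.0159 for 5 against 4), which became 0.148 after adjustment over the 28 tests of this kind. None of the 28 passed after adjustment, and 7 had an unadjusted p under 0.05. Cd8a minus Cd3e changed by 0.11 in WT on Day 7 and by -0.30 on Day 14 (exact permutation p = 0.686 and 0.413), so a fall of Cd8a beyond that of Cd3e was not detectable with these mice.

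Between the genotypes the same day was compared. On Day 0 none of the 8 genes passed, where 0.0166% of all genes did, and 1 had an unadjusted p under 0.05 by limma, beside 403 of all 12062 genes: Icos, with every FP-KO mouse above every WT mouse (log2 0.69 ± 0.15, adjusted p = 0.393). Such a lack of overlap was found in 2.11% of all genes. The other Icos probe sets differed by 0.03 ± 0.23 (1421930_at) and 0.27 ± 0.33 (1421931_at), with overlapping groups. On Day 7 none passed either, again beside 0.0166% of all genes, but all 8 were higher in FP-KO, with a median log2 difference of 0.47 beside 0.00 for all genes, and 4 had an unadjusted p under 0.05 (Cd8b1, Cd2, Cd8a, Icos), beside 877 of all 12062 genes. The NK cell markers had a median of 0.46 in this comparison, and the lists of receptor and signalling genes, T cell transcription factors and other costimulators had medians of 0.25, 0.12 and 0.00, with none of their genes called. The sizes ran from 0.09 ± 0.36 for Ctla4 to 0.72 ± 0.35 for Cd3e (adjusted p = 0.972 and 0.685). For 3 genes (Cd3e, Cd8a, Icos) the genotypes did not overlap on Day 7, against 5.41% of all genes. On Day 14 Zap70 was higher in FP-KO by 1.66 ± 0.46 (log2, adjusted p = 0.0232), 1 of 8 genes beside 10.5% of all genes called and 4.89% higher, with overlapping groups. Without WT Day 14 No. 1, WT Day 14 No. 2 or FP-KO Day 14 No. 2 it became 1.54, 1.41 or 1.57 (adjusted p = 0.0509, 0.0692 and 0.0888), and over the mean of its 3 probe sets the difference was 0.40 (adjusted p = 0.312). With the mouse number as a replicate block it was 1.33 (adjusted p = 0.0612). The call rests on the brightest of the 3 Zap70 probe sets. In 1422701_at FP-KO differed from WT on Day 14 by -0.03 ± 0.21 (adjusted p = 0.962 in the fit on all probe sets). The probe set 1440178_x_at did not pass the filter. Its Day 14 intensities ran from 88.4 to 128.8 in WT and from 34 to 116 in FP-KO. Neither of these probe sets thus showed the difference. Cd8b1 and Cd8a differed between the genotypes on Day 14 by 0.16 ± 0.16 and 0.18 ± 0.22 (adjusted p = 0.578 and 0.667).

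The Day 14 genotype difference of Ctla4 had opposite signs in the 2 sets of mice, and the difference between the sets was not tested. It was -0.49 ± 0.34 over all 9 mice (adjusted p = 0.396), -0.52 with the set as a term (adjusted p = 0.328), -1.33 in the set WT No. 1 to 3 with FP-KO No. 1 and 2 (3 against 2 mice, adjusted p = 0.0435) and 0.45 in the set WT No. 4 and 5 with FP-KO No. 3 and 4 (adjusted p = 0.794). In the first set the FP-KO mice gave 63.6 and 43.7 against 86.7, 129.6 and 156.2 in WT, and in the other 141.5 and 117.4 against 74.1 and 114.1. The corresponding values for Zap70 were higher in FP-KO in both sets, with 1.42 in the latter (adjusted p = 0.453).

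The time course was compared between the genotypes by the interaction, the change from Day 0 in FP-KO minus that in WT. On Day 7 it passed for none of the 8 genes and for 0% of all genes, and none of the 8 had an unadjusted p under 0.05 by limma. The interaction values ran from -0.34 ± 0.22 for Icos to 0.80 ± 0.50 for Cd3e. On Day 14 it passed for 1 of 8, Icos, beside 3.12% of all genes called and 1.84% lower: the rise from Day 0 was smaller in FP-KO by a log2 difference of -0.84 ± 0.21 (adjusted p = 0.0342). The Day 0 level enters this value. In probe set 1436598_at Icos lay higher in FP-KO than in WT on Day 0 without a call (log2 0.69 ± 0.15, adjusted p = 0.393). On Day 14 FP-KO was close to WT (log2 -0.15 ± 0.15, adjusted p = 0.559). The call was lost when any of 10 of the 17 arrays was left out (WT Day 0 No. 1, 3 or 4, WT Day 14 No. 2, 3 or 4, FP-KO Day 0 No. 1 or 2, or FP-KO Day 14 No. 2 or 3), with adjusted p from 0.0504 to 0.0671, and without FP-KO Day 0 No. 2 the value was -0.65. Over the mean of the 3 Icos probe sets it was -0.49 (adjusted p = 0.235).

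Most other genes of the T cell receptor pathway did not pass the test against Day 0. Of 15 tested genes for receptor and signalling, 1 rose and 2 fell in WT on Day 7, and 1 rose and 3 fell on Day 14, with median log2 differences of -0.10 and -0.22. Of all genes 17.1% were called higher and 18% lower in WT on Day 7, and 19.1% and 19.5% on Day 14. The adaptor Lcp2, which myeloid cells also express, rose by 0.78 ± 0.16 and 0.59 ± 0.15 on these days (adjusted p = 0.000604 and 0.00398), and the kinase Prkcq fell by a log2 difference of -0.83 ± 0.19 and -0.46 ± 0.18 (adjusted p = 0.00142 and 0.0444). In FP-KO 1 rose and 2 fell on Day 7, and 4 fell on Day 14, among them the Tec-family kinase Txk (-0.73 ± 0.20, adjusted p = 0.0486). Of all genes 12.6% were called higher and 10.7% lower in FP-KO on Day 7, and 1.85% and 1.41% on Day 14. From Day 7 to Day 14 in FP-KO, 7 of the 15 fell (median -0.44), beside 12% of all genes. Of 12 tested transcription factors of T cells, 1 rose and 5 fell in WT on Day 7 and 1 rose and 4 fell on Day 14. Lef1, a factor of naive T cells that other lung cells also express, had a difference of -0.95 ± 0.16 and -0.79 ± 0.15 (adjusted p = 9.99e-05 and 0.000341). In FP-KO 1 fell on Day 7 and 2 fell on Day 14, with Eomes, a factor of cytotoxic T and NK cells, at -1.61 ± 0.30 (adjusted p = 0.00538). Foxp3, the factor of regulatory T cells, did not pass the filter.

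Among 9 tested other costimulators and inhibitory receptors, 3 rose in WT on Day 7, and 3 rose and 2 fell on Day 14. Of all genes 17.1% and 19.1% were called higher on these days, and 19.5% lower on Day 14. The receptor Havcr2 (TIM-3), present on exhausted T cells and on myeloid cells, rose by 1.26 ± 0.21 and 1.12 ± 0.20 (adjusted p = 7.15e-05 and 0.000136), and Tnfrsf9 (4-1BB) by 1.24 ± 0.18 and 1.04 ± 0.17 (adjusted p = 1.45e-05 and 5.25e-05). The inhibitory receptor Btla fell by Day 14 (-0.59 ± 0.13, adjusted p = 0.000835). In FP-KO 3 rose on Day 7, and on Day 14 none rose and 1 fell, Btla at -0.52 ± 0.13 (adjusted p = 0.0317). Of all genes 12.6% were called higher in FP-KO on Day 7, and 1.41% lower on Day 14.

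Ligands for these receptors are made mostly by antigen-presenting cells. Of 15 tested, 11 rose in WT on Day 7 and 9 on Day 14, beside 17.1% and 19.1% of all genes, with medians of 0.42 and 0.35, and 4 rose in FP-KO on Day 7 and none on Day 14. Cd86, a ligand of Ctla4 and Cd28, rose in WT by 1.46 ± 0.23 on Day 7 (adjusted p = 5.07e-05) and 1.01 ± 0.22 on Day 14 (adjusted p = 0.00115), and in FP-KO by 1.15 ± 0.23 on Day 7 (adjusted p = 0.0013). Of 15 homing and survival genes, 7 rose in WT on Day 7 and 6 on Day 14, and in FP-KO 7 rose and 1 fell on Day 7 and 1 fell on Day 14. Of all genes 17.1% and 19.1% were called higher in WT on these days, and 12.6% and 1.85% in FP-KO. The shares called lower in FP-KO were 10.7% and 1.41%. The chemokines Cxcl9 and Cxcl10, which draw T cells that carry CXCR3, rose on Day 7 by 3.6 ± 0.47 and 3.14 ± 0.26 in WT (adjusted p = 5.12e-06 and 4.65e-08) and by 3.07 ± 0.47 and 2.89 ± 0.26 in FP-KO (adjusted p = 9.13e-05 and 5.61e-07).

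**Figure D4:**
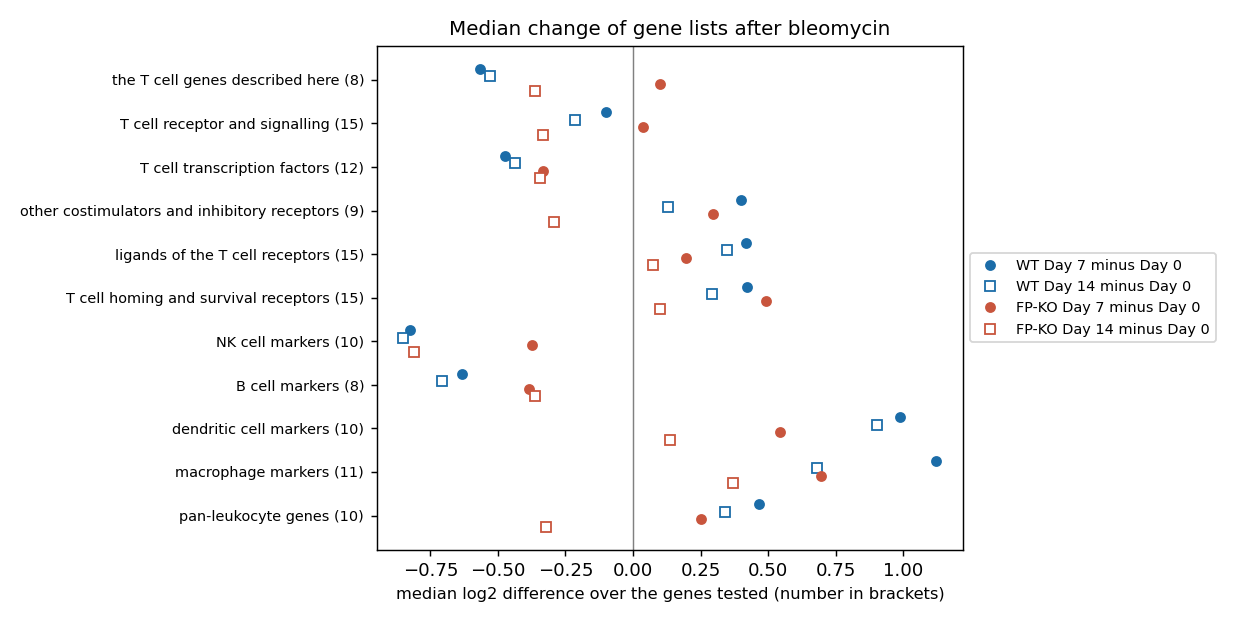
Median log2 difference from Day 0 (x axis) over the tested genes of each list, with the number of genes in brackets, for WT and FP-KO on Day 7 (circles) and Day 14 (squares). NK and B cell markers lie below 0 in all 4 comparisons, as the 8 T cell genes do in 3 of the 4, and dendritic cell and macrophage markers lie above 0.

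Markers of other cells that share receptors with T cells moved too. Of 10 tested NK cell markers, 6 fell in WT on Day 7 and 9 on Day 14, and 4 and 6 fell in FP-KO, with none rising. Of all genes 18% and 19.5% were called lower in WT on these days, and 10.7% and 1.41% in FP-KO. Gzma, a granule protease of NK and cytotoxic T cells, had log2 differences in WT of -1.33 ± 0.23 and -1.76 ± 0.22 (adjusted p = 0.000135 and 2.92e-06). The summed intensity of the 10 NK markers ran from 4894 to 6276.6 in WT on Day 0, from 3240.6 to 3769.8 on Day 7 and from 2159.3 to 3643.8 on Day 14, and in FP-KO from 5238.7 to 9269.4, from 4316.5 to 5083.6 and from 3037.2 to 4044.3. No NK marker was at the floor in all arrays of a group. Cd2 is also an NK cell gene, and the part of the NK markers in the falls of Cd2, Cd8a and Cd8b1 was not tested.

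Of 8 tested B cell markers, 4 fell in WT on Day 7 and 6 on Day 14, and 1 and 3 fell in FP-KO, with summed intensities over 9 genes from 4076.8 to 6854.5 in WT on Day 0 and from 3593.9 to 4471.2 on Day 14. The shares of all genes called lower were 18% and 19.5% in WT on Day 7 and Day 14, and 10.7% and 1.41% in FP-KO. The part of the B cell markers in the fall of Cd2 was not tested. Macrophage markers rose, 9 of 11 in WT on Day 7 and 8 on Day 14, and 7 and 2 in FP-KO. Of 10 dendritic cell markers 6 rose in WT on each day (1 also fell on Day 7), and in FP-KO 4 rose and 1 fell on Day 7 and 1 rose on Day 14. Of 10 genes of all leukocytes 7 rose in WT on Day 7, 6 rose and 1 fell on Day 14, and in FP-KO 1 rose on Day 7 and 1 fell on Day 14. The shares of all genes called higher were 17.1% and 19.1% in WT on Day 7 and Day 14, and 12.6% and 1.85% in FP-KO.

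Of 4 tested innate lymphoid cell markers, which overlap in part with the other lists, Arg1 rose and Rora fell in WT on both days, and in FP-KO 2 rose and 1 fell on Day 7 and none passed on Day 14. The shares of all genes called were 35.1% and 38.7% in WT on Day 7 and Day 14, and 23.3% and 3.26% in FP-KO. Arg1 is also made by macrophages. Thymocyte markers were checked because mediastinal tissue can be taken with the lung: 2 of 8 passed the filter, Rag1 was at the floor in all arrays of every group but FP-KO Day 14, where it ran from 0.7 to 32.1, and the summed intensity of the 8 genes ran from 1182 to 1641.9 in WT on Day 0 and from 725.4 to 1281.6 on Day 14. In WT on Day 14 the tested thymocyte gene Cd1d1, which other cells also express, fell by a log2 difference of -1.04 ± 0.26 (adjusted p = 0.00297).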

How the data were processed

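Lung RNA of 25 mice was measured. The deposited table gives the authors' linear intensity for 45101 probe sets, and all arrays share a mean of 500 once the outer 2% at either end are trimmed. Its software: not given in the sources used here. Groups and mouse numbers come from the titles.

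The deposited intensity values were floored at 24.3, their 20th percentile, taken to log2 and quantile-normalised, since array medians on the log2 scale ranged over 0.43. Control probe sets (64) and those listed with several symbols (932) or none (9160) were dropped. A gene was represented by its brightest probe set. Contrasts (11) were fitted with R 4.3.3 and limma 3.58.1 (lmFit on 6 group means, eBayes), with p adjusted by Benjamini-Hochberg over 12062 genes and called under 0.05. Pairs of genes were tested with scipy 1.17.1 by exact permutation. The fit was tested on simulated data.

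Mice of 1 number deviated together between the genotypes on Day 0 (correlations from 0.12 to 0.34) and Day 7 (0.14 to 0.22), but on Day 14 the correlations ran from -0.31 to 0.44. The numbers may thus pair the mice on Day 0 and Day 7, by a check that rests on the data and not on the labels. Mice of different numbers were not compared in it. The main fit and the permutation tests did not use the numbers, and fits with the replicate block are given as alternatives. Alternatives were other floors, filters and scalings, array weights, the mean of probe sets, replicate blocks, the Day 14 sets and each array left out. A fit on all probe sets and blocks within each day were added after the data were seen. From each list, up to 2 genes that rose and 2 that fell most in a contrast were eligible to be named. The T cell genes and lists were chosen with earlier results of these data known. The precision is limited by 4 or 5 arrays per group.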

Additional observations from a re-analysis of the deposited data

Results flagged for a closer look

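In 48 combinations of a tested gene and a group, 6 held 1 mouse far from the others of its group. The rule was the gap to its neighbour relative to the group's range, on normalised log2 values. Chance gives this in about 1 of 20 groups. The values quoted here are deposited intensities, on which the gaps can be smaller. Cd3e was 40.3 in WT Day 14 No. 2, under all other WT Day 14 mice. Cd3g was 284.2 in WT Day 0 No. 2, above its group, and 252.9 in WT Day 7 No. 3, below its group. Cd8a was 254.5 in WT Day 0 No. 1, above its group, and Cd8b1 was 250.5 in WT Day 0 No. 2, below its group. Cd2 was 342.7 in WT Day 14 No. 4, below its group.

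The change of Icos from Day 0 to Day 14 differed between the genotypes by a log2 value of -0.84 in a direct test of that difference, with FP-KO the smaller rise.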

How the results depend on the processing

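No difference called in the main fit turned its direction under any alternative run. The Day 14 genotype difference of Ctla4, not called in the main fit, was called at -1.33 in 1 Day 14 set (adjusted p = 0.0435). It was 0.45 in the other set (adjusted p = 0.794). The numbers of the 8 genes called were 3 (WT Day 7 against Day 0), 5 (WT Day 14), 0 (WT Day 14 against Day 7), 2 (FP-KO Day 7), 2 (FP-KO Day 14), 4 (FP-KO Day 14 against Day 7), 0, 0 and 1 (FP-KO against WT on Day 0, Day 7 and Day 14), and 0 and 1 (interaction on Day 7 and Day 14). They moved by over 1.5 times as follows; the causes were not tested, except that fewer arrays enter each Day 14 set, more genes are adjusted over without the filter, and 7 of the 8 genes were tested with the filter of 12 arrays (Ctla4 left) and with the mean of probe sets (Cd8a left).

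Without quantile normalisation they were 5 for WT Day 7, 1 for FP-KO Day 14 and 2 for FP-KO Day 14 against Day 7. With a common array median they were 3 for WT Day 14, 1 for FP-KO Day 14 and 2 for FP-KO Day 14 against Day 7. Without the filter they were 3 for WT Day 14, 1 for FP-KO Day 7, 1 for FP-KO Day 14, 2 for FP-KO Day 14 against Day 7 and 0 for the Day 14 interaction. With a filter of 12 arrays 1 of 7 was called for FP-KO Day 7, Ctla4 being untested. With the mean of all probe sets 3 of 7 were called for WT Day 14, where Cd8a was untested and Zap70 gave -0.27 (adjusted p = 0.388), 0 for FP-KO against WT on Day 14 and 0 for the Day 14 interaction. With array weights they were 2 for WT Day 14 against Day 7, 1 for FP-KO Day 14 and 2 for FP-KO Day 14 against Day 7. With WT No. 1 to 3 and FP-KO No. 1 and 2 alone on Day 14 they were 1 for WT Day 14 against Day 7, 2 for FP-KO against WT on Day 14 and 0 for the Day 14 interaction. With the other set alone they were 3 for WT Day 14, 1 for FP-KO Day 14, 1 for FP-KO Day 14 against Day 7, 0 for FP-KO against WT on Day 14 and 0 for the Day 14 interaction.

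With the replicate block 1 was called for WT Day 14 against Day 7 and 0 for FP-KO against WT on Day 14, where Zap70 gave 1.33 (adjusted p = 0.0612); with the replicate block within each day 0 were called there (adjusted p = 0.0636). The block also ended the calls of Zap70 in WT on Day 14 (-0.86, adjusted p = 0.137) and of Cd3e in FP-KO from Day 7 to Day 14 (adjusted p = 0.0628), and it gave those of Cd3g in WT on Day 14 (0.39, adjusted p = 0.037) and of Cd8b1 in WT from Day 7 to Day 14 (-0.58, adjusted p = 0.026).

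With 1 array left out at a time, the counts ran from 3 to 4 for WT Day 7, 3 to 5 for WT Day 14, 0 to 1 for WT Day 14 against Day 7, 1 to 2 for FP-KO Day 7, 1 to 2 for FP-KO Day 14, 1 to 4 for FP-KO Day 14 against Day 7, 0 to 0 for FP-KO against WT on Day 0 and Day 7, 0 to 1 on Day 14, 0 to 0 for the Day 7 interaction and 0 to 1 for the Day 14 interaction. Signal over background limits Cd4 and 1440811_x_at of Cd8a.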
